A study of Canis lupus familiaris with 6 samples.

Results

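Drilled holes in the mandible of beagle dogs were compared at day 14 between a hole implanted with beta-TCP and a hole left empty. The comparison uses 2 of the 6 arrays in the series, 1 of the beta-TCP specimen and 1 of the control specimen, chosen by the label for treatment and the label for time. The dogs were 9 years old, and all specimens came from mandibles in which premolars had been extracted and given 3 months to heal. Each hole measured 4.5 mm by 8 mm, and the cylinder collected from it had the same size. Beta-TCP is beta-tricalcium phosphate, a ceramic bone substitute that is resorbed in the body. RNA was labelled from 100 ng of total RNA and hybridised to an Affymetrix canine array. The other 4 arrays are a control and a beta-TCP specimen at day 4 and at day 7, and they enter only as side values. With 1 array per group no value has an error and no difference has a replicate check. The sources used here give neither the number of animals nor whether the 2 specimens came from 1 dog, so animal, site, array and treatment cannot be told apart.

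A drilled hole in bone first fills with clot and inflammatory cells. Granulation tissue follows, then woven bone laid down by osteoblasts, the cells that secrete type I collagen and mineralise it. Osteoclasts, which are multinucleated cells of the macrophage lineage, resorb mineral with acid and proteases and can attack calcium phosphate ceramics as well as bone. Osteoblasts that become enclosed in matrix turn into osteocytes, which express a set of genes of mineral and phosphate handling.

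Levels are given as multiples of the median of the array, taken over 42860 probe sets. Differences are log2(level + 1) of beta-TCP minus that of control, so a value of 1 is 2-fold on that scale, and differences of weakly expressed genes are understated. The array carries probe sets of 2 name types, Cfa (19917 probe sets) and CfaAffx (22943), which read the same RNA with different probes and are kept apart throughout. A gene is represented on each type by its strongest probe set, and a pair of values after a gene is Cfa first and CfaAffx second. The median intensity as deposited was 12 for the control specimen and 6.2 for the beta-TCP specimen. The beta-TCP array of day 14 stood apart from the rest of the series. Its Spearman correlation with any other array was between 0.723 and 0.779, whereas pairs of the remaining 5 arrays gave 0.832 to 0.905. It read 1261 probe sets at least 4-fold below the lowest reading of any other array, a number between 8 and 102 for each of the remaining arrays, and the part of this in the differences was not tested. The matrix genes COL1A1 and SPARC were high on Cfa on both arrays of day 14. BGLAP, MEPE and PHEX, described below, lay under the array median in control. The leading COL1A1 probe set (type I collagen, the main protein of bone matrix) was at 1270 in control and 2521 in beta-TCP, and SPARC (osteonectin) on Cfa was at 969 and 1538. DMP1, SOST, PHOSPHO1, SMPD3 and BMP3 did not reach the minimum level on any probe set analysed.

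On Cfa probe sets 5982 genes reached the minimum level, and their median difference was -0.16. Of these genes, 250 (4.18%) were at least 2-fold higher in beta-TCP and 777 (13%) at least 2-fold lower. On CfaAffx probe sets 8152 genes reached it, with a median difference of -0.28. There, 322 genes (3.95%) were at least 2-fold higher and 1740 (21.3%) at least 2-fold lower. Counted from the median of all genes of the type instead of from 0, 390 genes were higher and 567 lower on Cfa, and 663 higher and 1091 lower on CfaAffx. Large differences were mostly downward, since 18 Cfa genes were at least 4-fold higher and 95 at least 4-fold lower, against 6 and 241 on CfaAffx. Many of the higher genes were weak in the control, with 108 of the 250 on Cfa and 256 of the 322 on CfaAffx under 1 on the log2 scale there.

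The balance of higher and lower genes depended on how the arrays were put on one scale. Of the Cfa genes at least 2-fold apart, 24.3% were higher in beta-TCP with the arrays set to their medians, 65.3% with the arrays set to their 90th percentiles and 58.5% after quantile normalization. On CfaAffx the shares were 15.6%, 40.8% and 28.1%. The median of all genes moved from -0.16 to 0.21 and 0.14 on Cfa, and from -0.28 to 0.04 and -0.13 on CfaAffx. For most gene lists the median is therefore also given relative to that of all genes of the same type.

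Both types measured 3459 genes, which gives a second reading of the same RNA and not a second experiment. The sign was the same on both for 62.6% of them. Across these genes, which are not independent replicates, Pearson's r between the types was 0.344 and Spearman's rho 0.320. Genes at least 2-fold higher on both types numbered 17 (0.491%), which is 13.4% of the 127 higher on Cfa and 21.0% of the 81 higher on CfaAffx. Genes at least 2-fold lower on both numbered 237 (6.85%), which is 52.3% of the 453 lower on Cfa and 22.8% of the 1038 lower on CfaAffx. Another 11 genes were 2-fold higher on one type and 2-fold lower on the other. The median gene read 0.41 lower on CfaAffx than on Cfa.

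**Figure D1:**
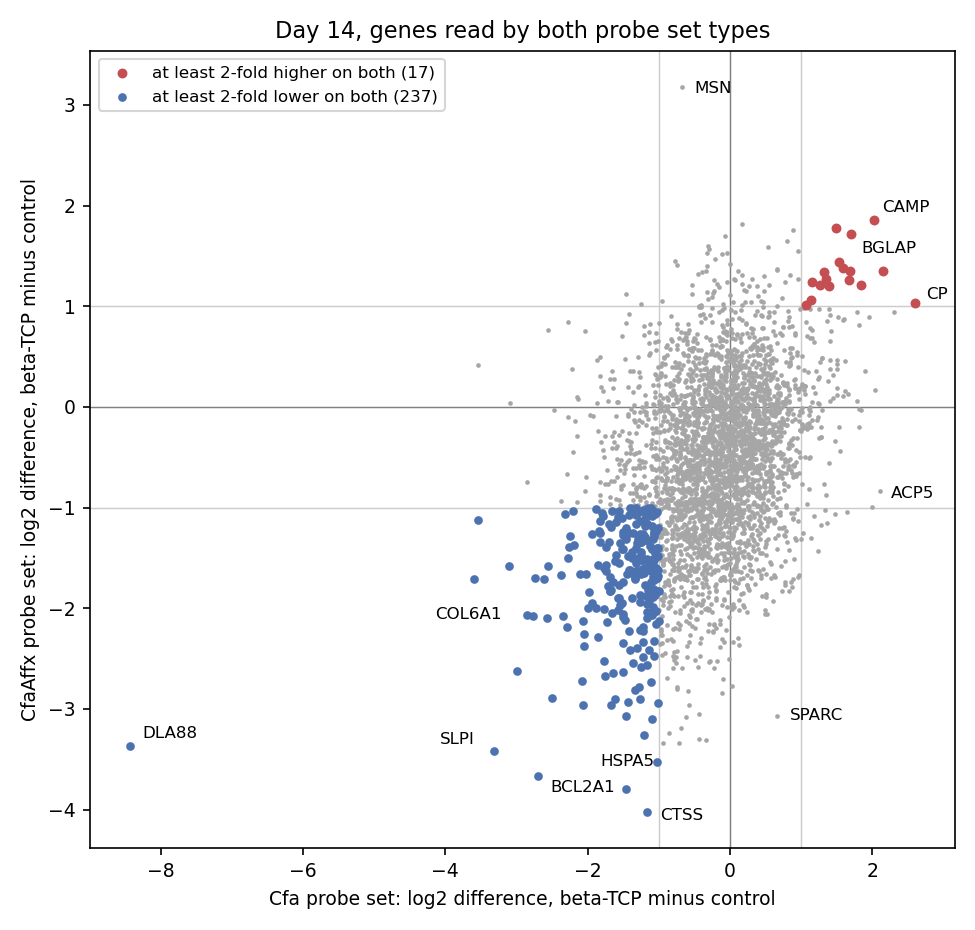
Log2 difference of beta-TCP minus control at day 14 on the Cfa probe set (horizontal) and the CfaAffx probe set (vertical) of the 3459 genes measured by both, 1 array per group. The 17 red points are genes at least 2-fold higher on both types and the 237 blue points genes at least 2-fold lower on both. The median of all points on the vertical axis is -0.54.

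The median CfaAffx difference was lowest in genes with a mean log2 from 3 to 6, above the level of most genes. The 3 bands there held 650, 352 and 157 genes. The 151 genes at 6 and over had a median of -0.48. The added 1 understates differences of weak genes, so the band medians are not fully comparable. Genes with a mean log2 under 1 had a median CfaAffx difference of 0.00, while those from 3 to 4 had -0.80 and those from 5 to 6 had -0.82. The Cfa medians of the same bands were 0.11, -0.17 and -0.32. Of CfaAffx genes from 3 to 6, 40.5% to 43.3% were at least 2-fold lower. The shares were 13.9% under 1 and 15.5% from 1 to 2, bands that hold 1974 and 3585 genes. For some lists below, the median is also given relative to level bands, with each gene set against the median of its own band and type.

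**Figure D2:**
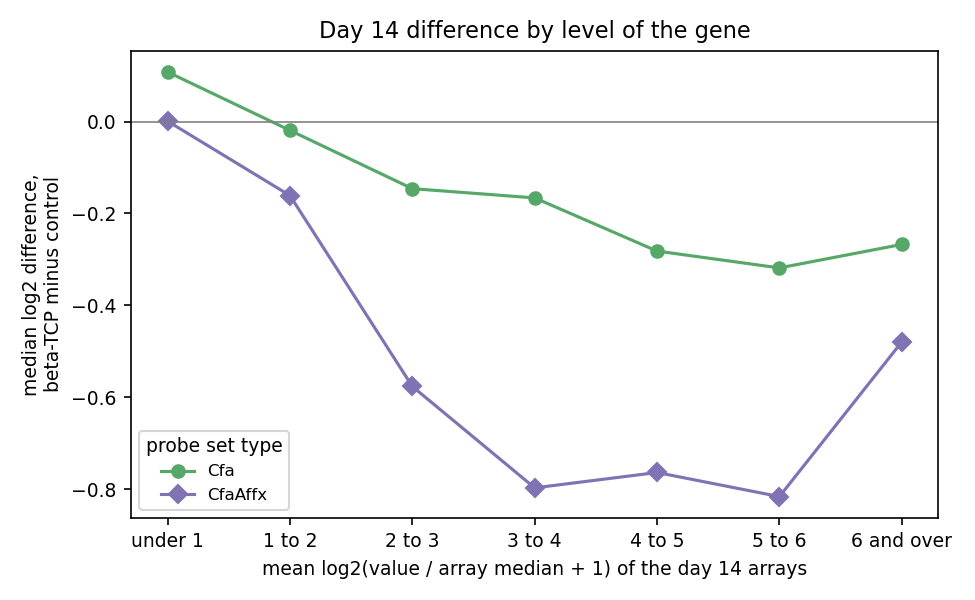
Median log2 difference of beta-TCP minus control at day 14 (vertical) for genes grouped by their mean log2 level on both day 14 arrays (horizontal), with Cfa as circles and CfaAffx as diamonds. The CfaAffx medians from level 2 to 6 lie between -0.58 and -0.82, and the Cfa medians from level 2 upward lie between -0.15 and -0.32.

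The largest increases in the osteoblast list were those of MEPE, PHEX, BGLAP and IBSP, picked out here by their size. BGLAP encodes osteocalcin, the protein of mineralising osteoblasts. Its Cfa probe set read 0.125 in control and 2.68 in beta-TCP, and its CfaAffx probe set 0.225 and 3.03. The differences were 1.71 and 1.72, and by the smaller of both readings only CAMP, described below, stood higher among genes with a symbol. MEPE, a phosphoglycoprotein of osteocytes, had 2 CfaAffx probe sets, which read 0.150 against 5.52 (difference 2.50) and 0.142 against 2.18 (difference 1.48). PHEX, an osteocyte endopeptidase of phosphate balance, read 0.692 in control and 8.00 in beta-TCP on Cfa, a difference of 2.41. IBSP, bone sialoprotein of new bone matrix, read 13.1 and 38.7 on CfaAffx, a difference of 1.50. The control levels of BGLAP, MEPE and PHEX lay below the array median, and the BGLAP and MEPE probe sets reached the minimum level only through the beta-TCP array. PHEX did not reach it on CfaAffx.

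Other genes of the osteoblast list did not share that direction on all probe sets. SPP1 (osteopontin, made by both osteoblasts and osteoclasts) differed by 1.14 on Cfa and by -0.20 on CfaAffx. SPARC differed by 0.67 on Cfa, and fell from 138 to 15.5 on CfaAffx, a difference of -3.07. The 3 COL1A1 probe sets, all Cfa, differed by 0.99, -0.40 and -1.36. The 4 COL1A2 probe sets (the second chain of type I collagen) differed by 0.65, 1.19, 0.57 and -0.01. Type I collagen therefore had no single direction across its probe sets, and its strongest probe sets were the higher ones. ALPL, the alkaline phosphatase of early osteoblasts, differed by -0.71 on Cfa and -0.01 on CfaAffx. PTH1R, the receptor of parathyroid hormone, differed by 0.33, PDPN (podoplanin of early osteocytes) by 0.50 and -1.35 on its Cfa probe sets and by -0.44 on its leading CfaAffx probe set, and RUNX2, the osteoblast transcription factor, by -0.34. DLX5 (0.11), ENPP1 (0.63) and OMD (-0.68) stayed within 2-fold. MSX2, a homeobox factor of bone progenitors, was lower at 6.68 against 20.9 in control, a difference of -1.51. FKBP10, a collagen chaperone, was at 10.1 in control and 0.113 in beta-TCP, a difference of -3.31.

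Of the 10 osteoblast list genes kept on Cfa, 3 were at least 2-fold higher and 1 lower, against 4.18% and 13% of all Cfa genes. Their median of 0.66 was 0.81 above that of all genes. With the 90th percentile 6 were higher, and the median of 1.09 was 0.88 above that of all genes. After quantile normalization 3 were higher and 4 below 0, and the median of 0.36 was only 0.22 above that of all genes. On CfaAffx 3 of 12 were higher and 2 lower, against 3.95% and 21.3% of all CfaAffx genes. The median of -0.11 was 0.17 above that of all genes. The CfaAffx median changed sign to 0.32 with either other scaling of the arrays, while the Cfa median was above 0 with all of them.

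The 3 genes with the largest Cfa increase were picked by that size, so their low control and high beta-TCP readings at day 14 follow from the choice. Their leading probe sets reached the minimum level only through the beta-TCP array. They were also at least 2-fold higher at day 7, as were BGLAP, MEPE and PHEX. NPY, which encodes neuropeptide Y, had the largest increase of all, 5.68, with a deposited intensity of 1.1 in control and 341 in beta-TCP. Its second Cfa probe set read 0.108 and 1.89, a difference of 1.38, under 50% of the first. ENPP6, a choline phosphodiesterase, read 0.408 and 16.8 on its leading probe set (difference 3.66) and 0.108 and 3.39 on another (difference 1.98). SAMD11, a nuclear protein with a SAM domain, read 0.225 and 12.7, a difference of 3.48. All 3 genes were near or under the array median in the control specimens of all 3 days and in the beta-TCP specimen of day 4, and above it in the beta-TCP specimens of days 7 and 14. IBSP was higher in beta-TCP on each day, by 2.50, 2.16 and 1.50.

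**Figure D3:**
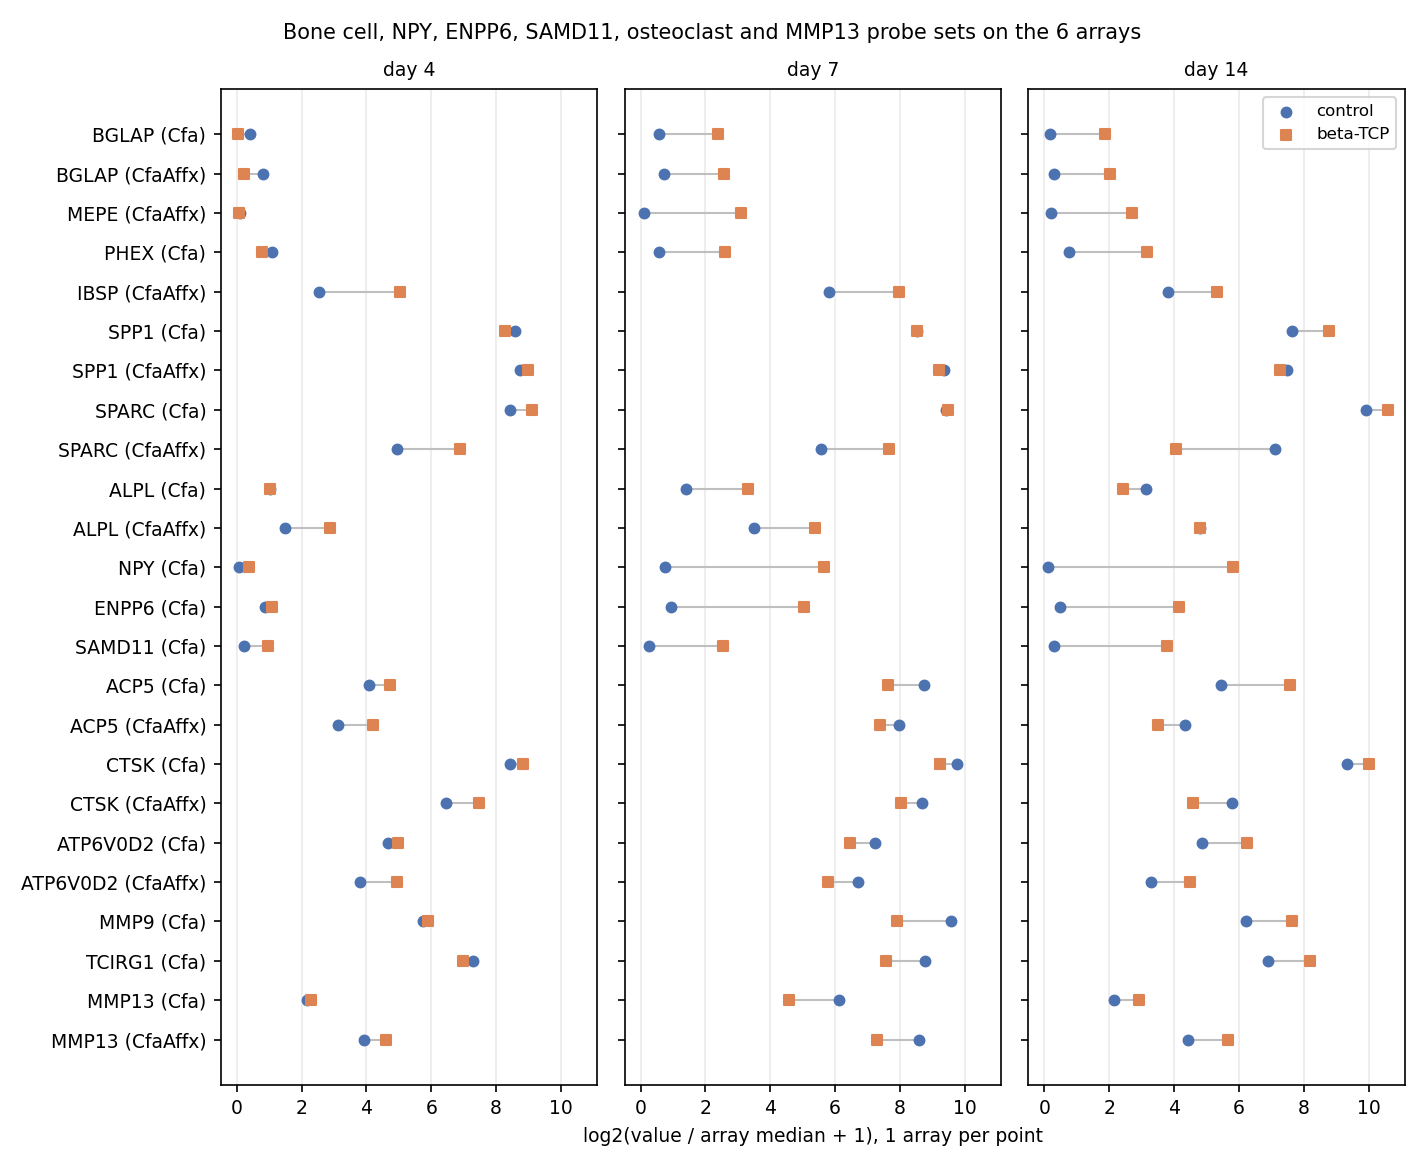
Log2(level + 1) of probe sets of bone cell and osteoclast genes, NPY, ENPP6, SAMD11 and MMP13 (rows) in the control (circles) and beta-TCP (squares) array of days 4, 7 and 14, 1 array per point. NPY, ENPP6, SAMD11, MEPE, PHEX and BGLAP are low on all arrays but the beta-TCP arrays of days 7 and 14, and ACP5, CTSK, ATP6V0D2, MMP9 and TCIRG1 on Cfa are lower in beta-TCP at day 7 and higher at day 14.

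Osteoclast genes were mostly above 0 on Cfa (8 of 10), against 40.5% of all Cfa genes. On CfaAffx 4 of 10 were above 0, near the 35.8% of all CfaAffx genes. ACP5, the tartrate-resistant acid phosphatase that stains osteoclasts, read 42.9 in control and 190 in beta-TCP on Cfa, a difference of 2.12. Its CfaAffx probe set read 19.3 and 10.3, a difference of -0.84. CTSK, cathepsin K, the protease that cleaves bone collagen, differed by 0.69 on Cfa and by -1.20 on CfaAffx. These genes thus have opposite signs on the 2 types. ATP6V0D2, the proton pump subunit of osteoclasts, was higher on both, at 28.0 against 75.4 on Cfa (1.40) and 8.72 against 21.4 on CfaAffx (1.20). MMP9, a gelatinase of osteoclasts, read 73.2 and 197 on Cfa, a difference of 1.41. TCIRG1, the proton pump subunit that is mutated in osteopetrosis, had Cfa differences of 1.31 and 0.95 on its probe sets. MMP13, a collagenase of bone, differed by 0.77 on Cfa and 1.24 on CfaAffx.

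Other members of the osteoclast list were lower or close to 0. ITGAV, the integrin chain by which osteoclasts attach, was lower on both types, by -1.13 and -2.42. OSTM1, the partner of the chloride channel CLCN7, differed by -0.82 and -1.87. CLCN7 differed by 0.09, SRC by -0.98 and TNFRSF11A, the receptor RANK, by -0.02, all on CfaAffx. CA2, carbonic anhydrase of the acid secreting cell, differed by 0.51 and 0.52, and ATP6V1B2 by 0.32 and 0.59, with -0.31 on another Cfa probe set. ATP6V1C1 differed by 0.18 on Cfa. On Cfa 4 of 10 genes of the list were at least 2-fold higher and 1 lower, against 4.18% and 13% of all Cfa genes. Their median was 0.60, which is 0.76 above that of all genes. On CfaAffx 1 of 10 was higher and 3 lower, against 3.95% and 21.3% of all CfaAffx genes. The median there was -0.43, which is 0.16 below that of all genes. Set against level bands the medians were 0.87 on Cfa and 0.05 on CfaAffx. CALCR, NFATC1, SIGLEC15 and ITGB3 did not reach the minimum level. Of the cytokine axis that drives these cells, CSF1R differed by 0.26 and -0.77, TNFSF11 (RANKL) by -0.68 and IL34 by 0.10, none of them 2-fold. In bulk tissue, fewer cells of a type and less RNA per cell cannot be told apart.

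Genes outside the bone cell lists were also higher on both types. CAMP, the cathelicidin of neutrophil granules, read 1.27 and 8.26 on Cfa (2.02) and 1.20 and 6.97 on CfaAffx (1.86), and led the genes higher on both. COMP, a cartilage and tendon matrix protein, read 3.20 and 11.6 on Cfa (1.59) and 0.633 and 3.26 on CfaAffx (1.38). WIF1, a secreted inhibitor of Wnt ligands that osteoblasts express, read 45.6 and 150 on Cfa (1.69) and 6.75 and 18.7 on CfaAffx (1.35), with 0.75 on a further CfaAffx probe set. CP, the plasma ferroxidase ceruloplasmin, read 3.08 and 23.9 on Cfa (2.61) and 0.625 and 2.32 on CfaAffx (1.03). FGL1, a fibrinogen-like protein known from liver, differed by 2.15 and 1.35. ANK3, the membrane adaptor ankyrin-G, differed by 1.68 and 1.26, although its 8 probe sets ranged from -0.11 to 1.68. GPD1 (1.32 and 1.34), a dehydrogenase of glycerol phosphate, and FBXO32 (1.07 and 1.01), a ubiquitin ligase subunit of muscle atrophy, were also higher on both. S100A2, a calcium-binding protein of epithelial cells, differed by 1.13 and 1.06, and CLHC1, RGS10, KCTD19 and DYRK1B complete the 15 genes that the naming rule selects.

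On single types the higher genes included DPP4, a cell surface peptidase, at 57.4 against 356 on its leading Cfa probe set (2.61) and at 24.1 against 46.0 on another (0.90). CRYM, a thyroid hormone binding protein, differed by 2.48, FBXO39 by 2.42, the phospholipid transporter ABCB4 by 2.31 (0.95 on CfaAffx) and the connexin gene GJA5 by 2.23 (1.01 on another probe set). On CfaAffx the largest increase was MSN, moesin of the cell cortex, which read 11.0 against 108 on 1 probe set (3.18). Its other probe sets differed by -0.67 and -1.72, so MSN has no direction here. KCNK2, a potassium channel, differed by 2.23, MBP, a myelin protein, by 2.13, GDAP1L1 by 2.36 (1.12 on another probe set), MAB21L2 by 2.05, SLCO4A1 by 1.90 (0.21 on another) and FAM3C by 1.88. SLC6A8, the creatine transporter, differed by 2.0 on 1 probe set, while its 3 probe sets ranged from -1.24 to 2.0.

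Enzymes and chaperones of collagen maturation had 1 sign in every kept member. On Cfa all 12 kept genes of the list were below 0, with a median of -0.80. At least 2-fold lower were 3 of them, against 13% of all Cfa genes. On CfaAffx all 15 were below 0 and 12 at least 2-fold lower, against 21.3% of all, with a median of -2.09. These medians lay 0.65 and 1.82 below those of all genes, and with the arrays set to their 90th percentiles or quantile normalized 1 gene of each type was above 0. SERPINH1, the collagen chaperone HSP47, read 19.6 in control and 0.242 in beta-TCP on its Cfa probe set, a difference of -4.06. P4HA2, a catalytic subunit of the prolyl hydroxylase of collagen, differed by -1.50 and -2.35, and P4HB, its other subunit, by -0.80 and -2.59 (-1.69 on another Cfa probe set). LOX, the enzyme that starts collagen crosslinking, read 7.38 and 0.194 on CfaAffx, a difference of -2.81. PPIB, the collagen prolyl isomerase, read 158 and 16.4 on CfaAffx (-3.19), while its Cfa probe sets differed by -0.69 and 0.07.

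Collagen chains went both ways. COL6A1, a microfibril collagen, was lower on both types, at 18.0 against 1.63 on Cfa (-2.85) and 4.26 against 0.258 on CfaAffx (-2.06). COL12A1, a fibril-associated collagen, differed by -1.99 and -2.0 on its leading probe sets and by -0.86 on another. COL5A1, which starts fibril assembly, differed by -1.47 on Cfa and by -3.80 and -1.09 on CfaAffx. COL3A1 of granulation tissue differed by 0.38 and 0.30 on its leading probe sets and by -1.30 on another, and COL14A1, also fibril-associated, by 0.61 and 0.31. COL4A2 of basement membranes differed by 0.51 on Cfa and -1.86 on CfaAffx. COL9A1, a cartilage collagen, was higher by 1.36 on CfaAffx. On Cfa no chain of 12 was at least 2-fold higher and 3 were lower, against 4.18% and 13% of all Cfa genes. On CfaAffx 1 of 13 was higher and 5 lower, against 3.95% and 21.3% of all. The median was 0.12 on Cfa and -0.33 on CfaAffx, 0.28 above and 0.05 below that of all genes, and it changed sign with quantile normalization on Cfa (-0.19) and with the 90th percentile on CfaAffx (0.05).

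Proteoglycans and matricellular proteins were below 0 in 11 of 16 genes on Cfa and in all 19 on CfaAffx. So were 3557 of all 5982 Cfa genes and 5232 of all 8152 CfaAffx genes. ASPN, asporin of periodontal and bone matrix, read 42.3 in control and 6.06 in beta-TCP on Cfa, a difference of -2.62. OGN, osteoglycin, read 46.6 and 2.26 on CfaAffx (-3.87), and TNN, tenascin-N of bone surfaces, read 14.4 and 0.661 (-3.21). THBS2 differed by -1.85 and -2.29 and THBS1 by -1.25 and -2.58 (-0.25 on another Cfa probe set), both thrombospondins. LUM, lumican, read 876 and 894 on Cfa, a difference of 0.03, but 912 and 133 on CfaAffx, a difference of -2.77. The 16 Cfa genes held 5 at least 2-fold lower, against 13% of all, and 0 higher, with a median of -0.49. The 19 CfaAffx genes held 13 lower, against 21.3% of all, and 0 higher, with a median of -1.64. Relative to all genes the medians were -0.33 and -1.37, and relative to level bands -0.36 and -1.10. With the 90th percentile 2 Cfa genes were lower and 1 higher (median -0.13), and after quantile normalization 3 were lower. Of the 5 Cfa genes above 0, SPARC was the highest at 0.67.

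The secretory pathway, through which matrix proteins leave the cell, was lower as well. On Cfa 13 of 32 genes were at least 2-fold lower, against 13% of all Cfa genes, and 0 higher. The median was -0.94, which is 0.78 below that of all genes. The 13 lower genes became 8 with the 90th percentile and 7 after quantile normalization, with 1 gene higher in each. On CfaAffx 16 of 22 were lower, against 21.3% of all, and 0 higher, and all 22 stayed below 0 with each scaling. Their CfaAffx median was -1.65, which is -1.38 relative to all genes. Relative to level bands the medians were -0.66 on Cfa and -0.96 on CfaAffx. CKAP4, a membrane protein of the rough endoplasmic reticulum, was lower on both types, at 281 against 66.5 on Cfa (-2.06) and 6.48 against 0.710 on CfaAffx (-2.13). TMED9, a cargo receptor, differed by -1.43 and -2.93, and SSR1 of the translocon by -1.75 and -2.68. RCN1, a calcium-binding protein of the same compartment, read 472 and 96.1 on Cfa (-2.28) and 121 and 25.8 on CfaAffx (-2.19). HSPA5, the chaperone BiP, differed by -0.71 on Cfa and by -3.33 on CfaAffx.

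Cell cycle genes were lower on both types. On Cfa 4 of 12 were at least 2-fold lower, against 13% of all Cfa genes, with a median of -0.83. On CfaAffx 13 of 20 were lower, against 21.3% of all, with a median of -1.31, and none was 2-fold higher on either type. Relative to all genes these medians were -0.67 and -1.03, with the same rounded values relative to level bands. RRM2, the ribonucleotide reductase subunit of S phase, differed by -1.57 and -1.90, CDK1, the mitotic kinase, by -0.86 and -1.94 (-1.59 on another Cfa probe set), and NUSAP1 of the spindle by -1.06 and -1.22. The histone variant gene H2AZ1 differed by -1.03 and -3.53. TOP2A, which untangles replicated DNA, differed by -1.60 and -0.92. Outside the lists, the genes lowest on both types held CHURC1 (-2.99 and -2.62), the chromatin protein MORF4L2 (-2.76 and -2.08), the LIM protein CSRP2 (-2.08 and -2.72), the nuclear protein C1D (-2.05 and -2.38) and SSB, the La protein (-2.05 and -2.25, with -0.44 on another probe set). EIF3E, of translation initiation, differed by -3.54 and -1.13, and SAR1B, a GTPase of vesicle export, by -0.94 on Cfa and by -3.34 and -1.81 on CfaAffx.

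Genes often used as reference were lower too. Their median was -0.59 for 13 genes on Cfa and -2.03 for 11 genes on CfaAffx, which is 0.43 and 1.75 below that of all genes. Set against level bands it was -0.42 and -1.55. HPRT1, of purine salvage, read 29.5 and 6.27 on Cfa (-2.07) and 15.5 and 1.11 on CfaAffx (-2.96), and YWHAZ, a 14-3-3 adaptor, differed by -1.51 and -2.63 on its leading probe sets and by 0.15 on another. EEF1A1 and RPLP0, of translation, differed by -2.03 and -2.43 on CfaAffx, while GAPDH, of glycolysis, differed by 0.26 there. On CfaAffx the median of these reference genes was below those of the secretory pathway and the cell cycle and close to that of the collagen enzymes, with which it shares PPIB. Lysosomal genes had a median of -0.21 on Cfa, 0.05 below that of all genes, and 3 of 22 were lower, near the 13% of all Cfa genes. That median was 0.19 with the 90th percentile and 0.12 after quantile normalization. On CfaAffx it was -1.58, 1.31 below that of all genes and -1.08 relative to level bands (12 of 17 lower, against 21.3% of all). The list was led by CTSS, cathepsin S, at -1.16 and -4.02. Genes of the respiratory chain had a median of 0.08 and -0.80, which is 0.35 and -0.03 relative to level bands. Cytosolic ribosomal proteins had -0.42 and -0.28, which became 0.01 and 0.16 with the 90th percentile.

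**Figure D4:**
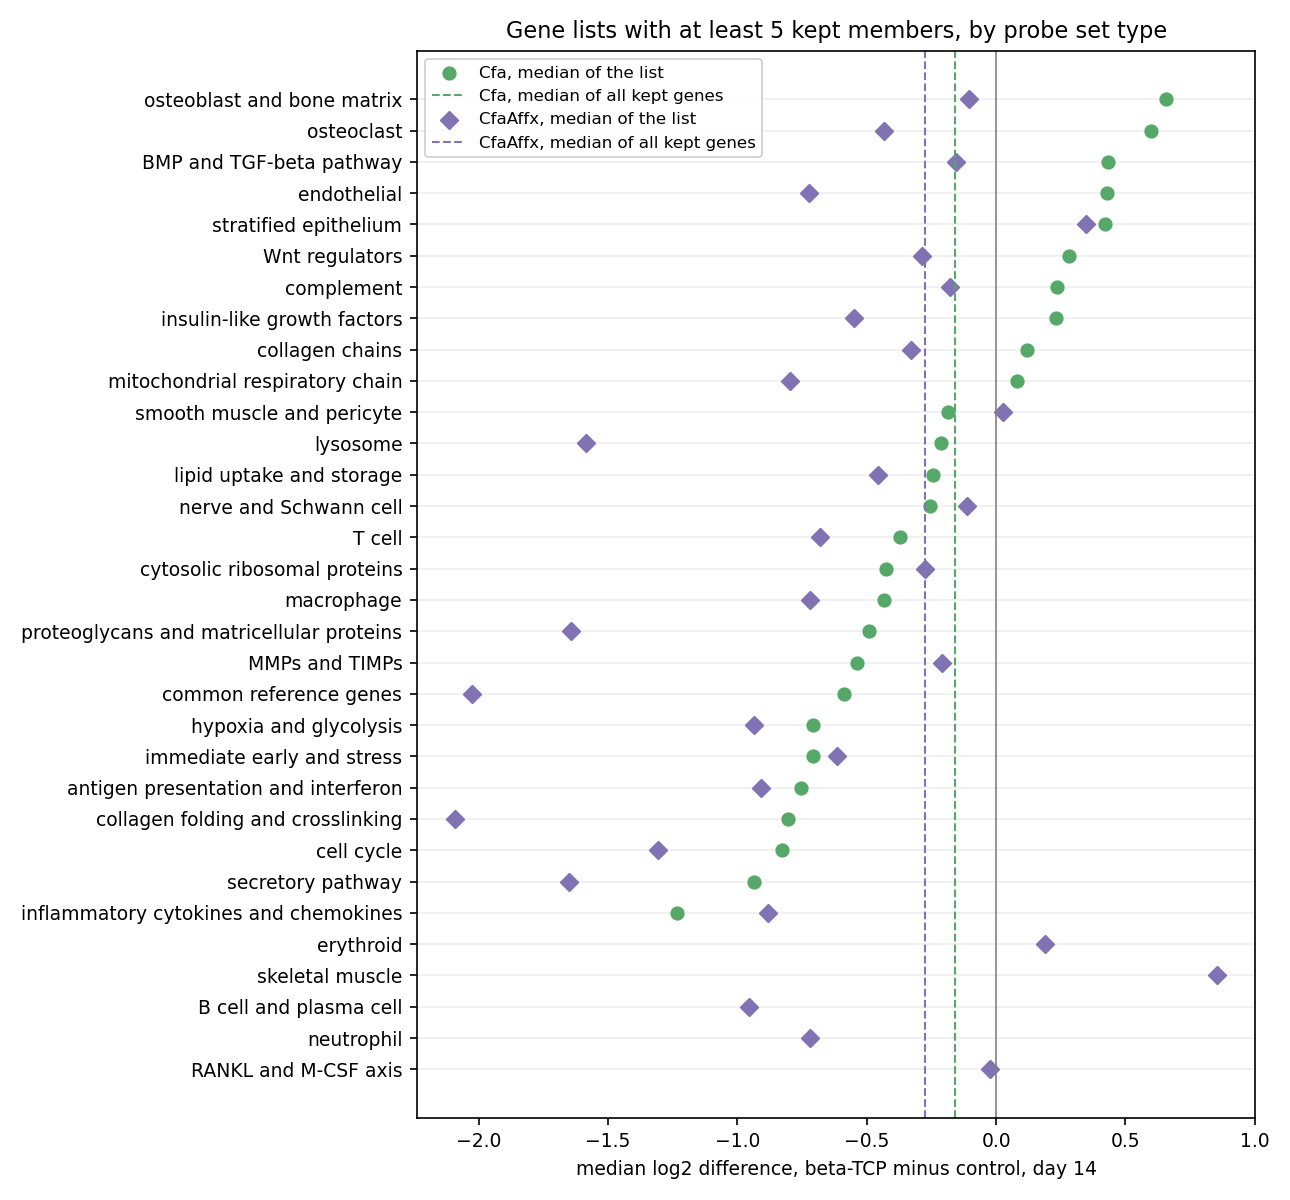
Median log2 difference of beta-TCP minus control at day 14 (horizontal) of each gene list with at least 5 kept members (rows), with Cfa as circles, CfaAffx as diamonds and the median of all kept genes of each type as a dashed line (-0.16 and -0.28). With the arrays set to their medians, osteoblast and osteoclast lists have the highest Cfa medians (0.66 and 0.60). Inflammatory and secretory lists have the lowest (-1.23 and -0.94), and the common reference genes lie at -0.59 and -2.03.

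Inflammatory genes were lower in beta-TCP. On Cfa 12 of 23 cytokine, chemokine and prostaglandin genes were at least 2-fold lower and 0 higher, with a median of -1.23, which is 1.07 below that of all genes. On CfaAffx 5 of 12 were lower and 1 higher, with a median of -0.88, which is 0.61 below. The shares lower among all genes were 13% on Cfa and 21.3% on CfaAffx. Set against level bands the 2 medians were -1.07 and -0.42. CXCL8, the interleukin 8 that draws neutrophils, had 3 Cfa probe sets, which read 513 against 20.8 (-4.56), 79.4 against 0.242 (-6.02) and 50.4 against 0.839 (-4.81). PTGS2, the inducible cyclooxygenase, read 123 and 12.7, a difference of -3.18. IL1R2, the decoy receptor of interleukin 1, read 18.9 and 2.90 on Cfa (-2.35) and 7.34 and 0.984 on CfaAffx (-2.07). CCL4 (-2.34), IL6 (-2.26), CCL2 (-2.13), CCL3 (-1.85, with -0.87 on another probe set) and IL1A (-1.83) were lower on Cfa, and IL1B differed by -0.56 on Cfa and -1.84 on CfaAffx. CXCL12, which holds progenitors in marrow, was the 1 higher gene, by 1.52 on CfaAffx, and differed by -0.04 on Cfa. BCL2A1, a survival gene of activated leukocytes, read 213 and 31.9 on Cfa (-2.70) and 53.3 and 3.29 on CfaAffx (-3.66). SLPI, an inhibitor of leukocyte proteases, read 117 and 10.9 on Cfa (-3.31) and 61.3 and 4.84 on CfaAffx (-3.41). SRGN, the proteoglycan of leukocyte granules, differed by -4.16 and -3.86 on its Cfa probe sets. SORL1, a sorting receptor, differed by -3.60 on Cfa and by -1.71 and -1.93 on CfaAffx.

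Antigen presentation and interferon genes were lower. The largest difference in size was that of DLA88, a polymorphic class I histocompatibility gene of the dog. It read 708 in control and 1.05 in beta-TCP on Cfa (-8.43), and 12 and 0.258 on CfaAffx (-3.37). The beta-TCP array of day 14 was low, while the other 5 arrays read 143 to 708 on Cfa and 12 to 38 on CfaAffx. Readings of a polymorphic gene also depend on how an animal's alleles match the probes, and whether the specimens differ in allele was not tested, so these values need not be levels of expression. PSMB9, a subunit of the immunoproteasome, read 49.4 and 1.42 (-4.38), with 37.9 to 51.0 on the 4 arrays of days 4 and 7. MX1, an antiviral interferon target, read 30.0 and 1.89 (-3.43), and ISG15, an interferon-induced modifier, differed by -2.78 and -1.04 on its Cfa probe sets. B2M, the light chain of class I, differed by -0.91 and -2.44. On Cfa 7 of 24 genes of the list were at least 2-fold lower and on CfaAffx 11 of 25, against 13% and 21.3% of all genes. With 0 higher on either type, the medians were -0.75 and -0.91. These lay 0.60 and 0.63 below those of all genes, and relative to level bands they were -0.60 and -0.51. The counts include DLA88, and became 4 and 7 with the 90th percentile.

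**Figure D5:**
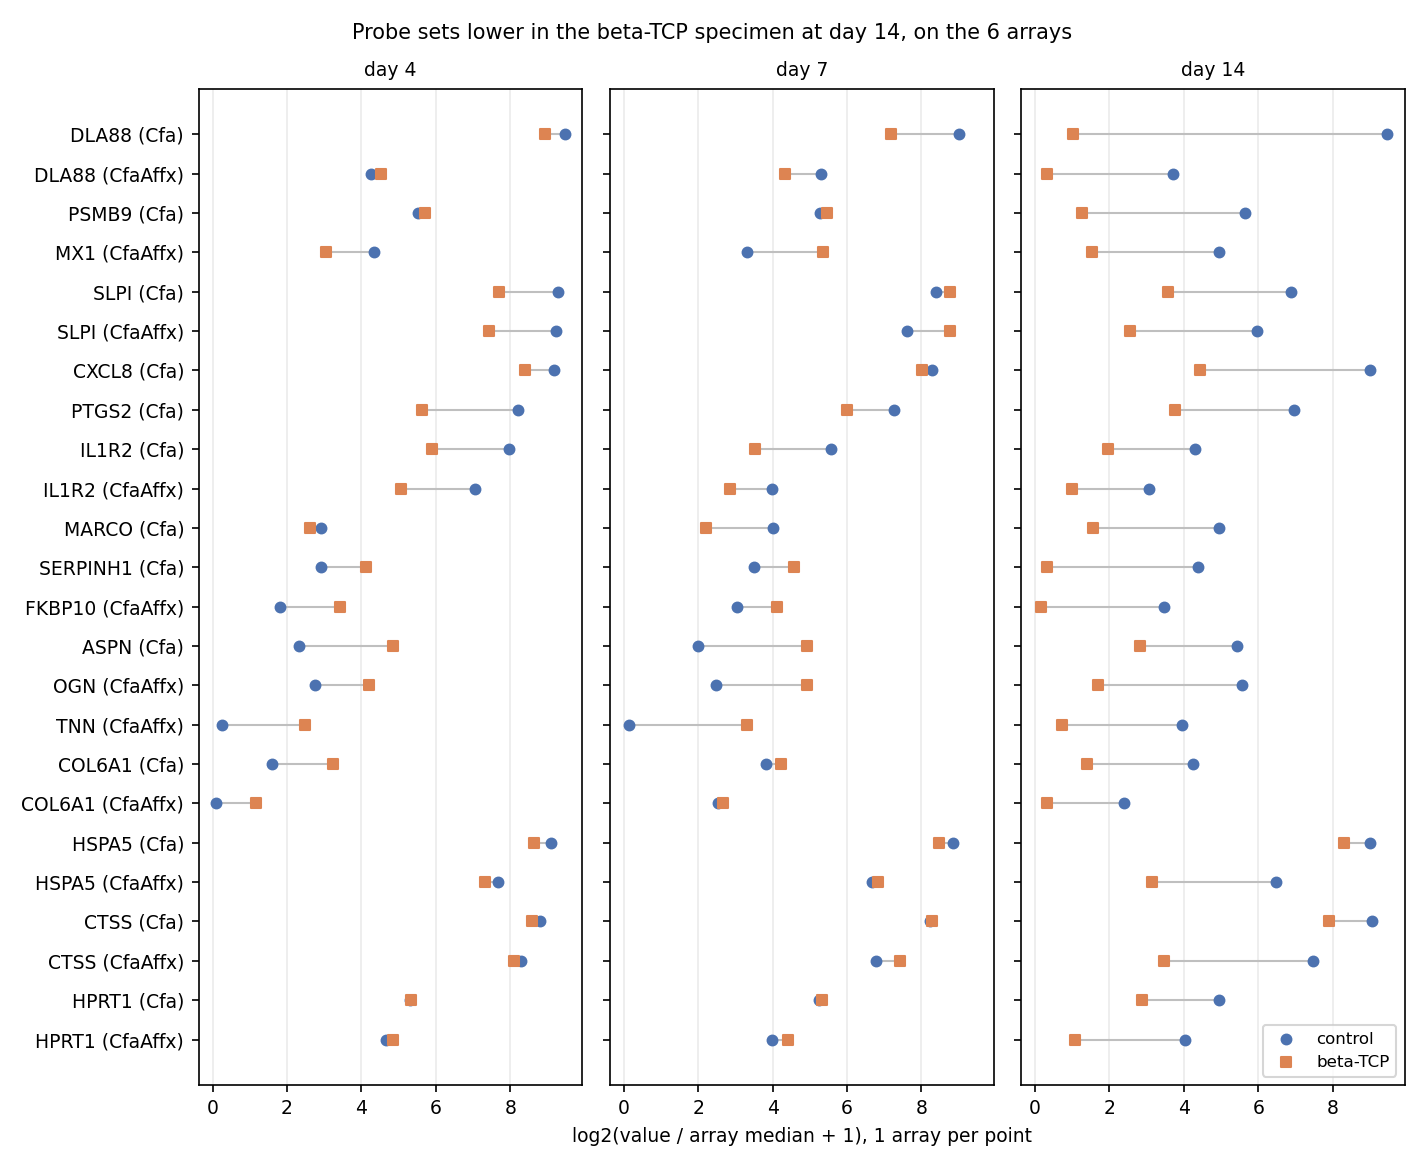
Log2(level + 1) of probe sets lower in beta-TCP at day 14 (rows) in the control (circles) and beta-TCP (squares) array of days 4, 7 and 14, 1 array per point. DLA88, PSMB9 and SERPINH1 are lowest on the beta-TCP array of day 14, while IL1R2 and PTGS2 are lower in beta-TCP on each day.

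Of glycolysis and hypoxia genes 8 of 21 were at least 2-fold lower on Cfa, against 13% of all genes, and 8 of 19 on CfaAffx, against 21.3%, with 0 higher. The medians of -0.71 and -0.93 lay 0.55 and 0.66 below those of all genes, and relative to level bands they were -0.43 and -0.42. Of all CfaAffx genes with a mean log2 from 3 to 6, 40.5% to 43.3% were at least 2-fold lower. The Cfa count became 2 of 20 with the 90th percentile (median -0.26) and 4 of 21 after quantile normalization (-0.30). PGAM1 of glycolysis differed by -1.46 and -3.07, and SLC2A1, the glucose transporter, by -1.17 and -0.99. Immediate early and stress genes had 5 of 12 lower on Cfa (median -0.71) and 7 of 18 on CfaAffx (median -0.62), against the same 13% and 21.3%. With either of these scalings 3 were lower on Cfa. The list held KLF6 at -1.98 and -1.83 and DUSP1 at -1.31 and -1.63. NFIL3, a transcription factor of immune cells, was lower by -2.56 on Cfa and by -2.10 and -0.47 on its CfaAffx probe sets. Of the genes of lipid uptake and storage, 5 of 14 on Cfa and 3 of 8 on CfaAffx were lower, and 1 on Cfa was higher (LIPE, 1.24). The medians of -0.24 and -0.46 lay only 0.08 and 0.18 below those of all genes. Above 0 were 6 of 14 on Cfa and 3 of 8 on CfaAffx, near the 40.5% and 35.8% of all genes. PLIN2 of lipid droplets was among the lower genes, at -1.66 to -3.01 on Cfa and -2.97 on CfaAffx. PDK4, the kinase that shuts pyruvate oxidation, differed by -3.54 on Cfa and 0.42 on CfaAffx.

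In growth factor pathways of bone, the share of genes 2-fold apart varied with the list and the type of probe set. For comparison, 4.18% of all Cfa genes were higher and 13% lower, and 3.95% and 21.3% of all CfaAffx genes. Of the genes of the BMP and TGF-beta pathway 0 of 7 on Cfa were 2-fold apart, and on CfaAffx 2 of 16 were higher and 2 lower, against 3.95% and 21.3% of all CfaAffx genes. BMP2, the bone-inducing ligand, differed by 0.43 and 1.05, and BMP7 by 0.94 and 0.52. ID1, a target of BMP signals, was higher by 1.11, whereas ID3, another, differed by 0.61 on Cfa and by -1.67 on CfaAffx. Among 7 Wnt regulators on Cfa 1 was higher and 2 lower, and among 9 on CfaAffx 1 was higher and 1 lower. WIF1 was the only gene higher by 2-fold with the arrays set to their medians, and DKK3 (-1.81) and RSPO3 (-1.01) were lower on Cfa and SFRP4 on CfaAffx (-1.27, against 0.68 on Cfa). Insulin-like growth factor genes held 0 of 6 apart on Cfa, and 2 of 9 higher and 4 lower on CfaAffx, where IGF2R differed by -1.65 (-0.39 on Cfa) and IRS2 by 1.10. Among matrix proteases and their inhibitors 2 of 9 on Cfa were higher and 2 lower, and MMP14, the membrane collagenase, differed by -1.48.

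Markers of other cell types moved in the same specimens, and their part in the results above was not tested. Macrophage markers summed to 796 in control and 678 in beta-TCP over 15 Cfa genes, and to 227 and 63.0 over 14 CfaAffx genes. The lower genes included scavenger receptors. MARCO read 29.7 and 1.92 (-3.39), CD163 differed by -2.03 on Cfa and by -1.66 and -0.16 on CfaAffx, and MRC1 by -1.66 and -2.05. CD68, a lysosomal marker that osteoclasts share, was higher by 1.59 on Cfa and differed by 0.10 on CfaAffx. On Cfa 1 of 15 macrophage genes was at least 2-fold higher and 6 lower, against 4.18% and 13% of all Cfa genes. Of 12 on CfaAffx 0 were higher and 5 lower, against 3.95% and 21.3%. The medians of -0.43 and -0.72 lay 0.27 and 0.44 below those of all genes. With the 90th percentile the Cfa median was 0.00. Above 0 were 6 of 15 on Cfa and 2 of 12 on CfaAffx, against 40.5% and 35.8% of all genes. Among them was TREM2 at 0.91 and 0.28. Neutrophil markers summed to 3.15 and 10.6 over 3 Cfa genes and to 312 and 119 over 14 CfaAffx genes. On CfaAffx they were divided, with 4 of 10 kept genes lower (CSF3R -2.06, TREM1 -1.87, S100A9 -1.86, S100A8 -1.17) and 3 higher (CAMP, FPR2 1.08, CTSG 1.01). The shares among all CfaAffx genes were 21.3% and 3.95%. CSF3R differed by 0.52 and -0.62 on Cfa, and MPO, ELANE, MMP8 and PADI4 did not reach the minimum level.

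Endothelial markers summed to 302 and 349 over 13 Cfa genes, and to 125 and 140 over 17 CfaAffx genes. On Cfa 9 of 13 kept genes were above 0, with 1 at least 2-fold higher and 2 lower, against 4.18% and 13% of all. On CfaAffx 13 of 16 were below 0 although the sum was higher. There 1 was higher and 5 lower, against 3.95% and 21.3% of all. The median was 0.43 on Cfa and -0.72 on CfaAffx. TEK, the angiopoietin receptor, was higher by 1.99 on Cfa and CDH5 by 1.04 on CfaAffx. SELE, the E-selectin of activated vessels, was lower at -2.18 on Cfa (-0.14 on CfaAffx). CLDN5 was lower on both its probe sets, by -2.19 and -1.45. Smooth muscle markers summed to 1229 and 791 over 12 Cfa genes and to 565 and 737 over 15 CfaAffx genes. Of 12 kept genes on Cfa and 9 on CfaAffx, 1 was at least 2-fold higher and 3 lower on each type. The medians were -0.18 and 0.03, which is -0.03 and 0.30 relative to all genes. MYH11 (1.98 on Cfa) and NOTCH3 (1.16 on CfaAffx) were higher. CALD1 stood at -1.21 and -3.25 (0.21 on another Cfa probe set), and TAGLN at -0.23 to -2.23 on 3 probe sets. Nerve markers summed to 240 and 118 over 11 Cfa genes and to 55.4 and 20.3 over 13 CfaAffx genes. Of 6 kept genes on Cfa and 5 on CfaAffx, 1 was higher and 2 lower on each type. GAP43 of growing axons stood at 9.39 against 0.0968 (-3.24). T cell markers summed to 21.7 and 16.2 over 10 Cfa genes and to 13.3 and 5.34 over 10 CfaAffx genes, and 0 of 6 kept genes were 2-fold apart there, while GZMB (-2.0) and LCK (-1.09) were lower on CfaAffx. B cell and plasma cell markers summed to 81.8 and 64.3 over 4 Cfa genes and to 22.4 and 9.74 over 10 CfaAffx genes. Lower were 1 of 3 kept genes on Cfa (CD38, -2.05) and 2 of 5 on CfaAffx, with 0 higher. Complement genes had a median of 0.23 on Cfa and -0.18 on CfaAffx, with CFI (1.86, and 0.97 on another Cfa probe set), C3 (1.07) and CD59 (1.01, against -0.18 on CfaAffx) higher and C5AR1 (-2.47, against -0.03 on CfaAffx) and CFD (-1.30) lower on Cfa.

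Epithelial, muscle and red cell markers were weak in both specimens. Those of stratified epithelium summed to 17.2 and 29.7 over 10 Cfa genes and to 22.8 and 39.8 over 17 CfaAffx genes, and EPCAM, CDH1, DSG3 and KRT1 did not reach the minimum level. Skeletal muscle markers summed to 4.80 and 4.87 over 11 Cfa genes and to 8.98 and 16.0 over 16 CfaAffx genes. TTN of the sarcomere differed by 1.51 on its leading Cfa probe set, by 0.29 to 0.47 on 3 further Cfa probe sets and by 0.89 on CfaAffx, and MYL1 by 1.11. Erythroid markers summed to 1.04 and 1.26 over 3 Cfa genes and to 6.93 and 9.32 over 8 CfaAffx genes, with GATA1 at 1.26. Cartilage markers summed to 22.1 and 24.1 over 4 Cfa genes and to 13.5 and 16.1 over 10 CfaAffx genes. COL2A1, COL10A1 and SOX9, which define cartilage, did not reach the minimum level, whereas COMP and COL9A1 were higher.

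Set beside the earlier days, part of the difference recurred and part went the other way. Each day has its own control array, and the same probe sets were read on all days. On Cfa 16 of the 250 genes higher at day 14 were also at least 2-fold higher at day 7. That is 6.40% of them, against 2.81% of all Cfa genes. It is also 9.52% of the 168 genes higher at day 7, against 4.18% of all at day 14. Another 24 of the 250 were at least 2-fold lower at day 7, against 3.68% of all Cfa genes. Besides NPY, ENPP6, SAMD11, PHEX, BGLAP and CP, the 16 include GPRC5C (2.06 at day 14, 3.23 at day 7) and EPHA3 (1.16 and 1.54). On CfaAffx 15 of 322 recurred, which is 4.66% of them, against 2.70% of all. They are 6.82% of the 220 higher at day 7, against 3.95%. MEPE, IBSP, BGLAP, KCNK2 (2.23 and 2.03), CDH2 (1.47 and 3.12) and COL9A1 (1.36 and 1.03) were among these. Another 10 of the 322 were 2-fold lower at day 7, against 2.29% of all CfaAffx genes. With day 4 the shared counts were 6 of 250 on Cfa and 12 of 322 on CfaAffx. These are 2.40% and 3.73%, against 5.15% and 4.07% of all genes. IBSP and ATP6V0D2 (1.20 and 1.16) were in the shared CfaAffx group. Another 9 and 11 were 2-fold lower at day 4, against 2.41% and 2.59% of all genes.

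Of the genes lower at day 14, 46 Cfa genes were also lower at day 4, which is 5.92% of the 777, against 2.41% of all Cfa genes, and 31.9% of the 144 lower at day 4, against 13% of all at day 14. Of the 777, 62 were at least 2-fold higher at day 4, against 5.15% of all Cfa genes. The 46 include PTGS2 (-3.18 at day 14, -2.59 at day 4), IL1R2 (-2.35 and -2.06), CCL4 (-2.34 and -2.25), CCL3 (-1.85 and -2.24) and IL1A (-1.83 and -1.94). With day 7, 49 Cfa genes were shared, which is 6.31% of the 777, against 3.68% of all. They are 22.3% of the 220 lower at day 7, against 13%. Another 41 of the 777 were at least 2-fold higher at day 7, against 2.81% of all Cfa genes. The 49 include SORL1 (-3.60 and -1.63), MARCO (-3.39 and -1.79) and SLC2A1 (-1.17 and -2.38). On CfaAffx 66 of 1740 genes were lower at day 4 too, which is 3.79% of them, against 2.59% of all, and 31.3% of the 211 lower then, against 21.3%. At day 7 it was 50 genes, which is 2.87% of the 1740, against 2.29% of all, and 26.7% of the 187, against 21.3%. More of the 1740 went the other way. In beta-TCP 90 of them were at least 2-fold higher at day 7, against 2.70% of all CfaAffx genes. At day 4 it was 166, against 4.07% of all, SPARC (1.94), TNN (2.24) and FKBP10 (1.62) among them. The list medians that follow, at days 4, 7 and 14, are not set relative to all genes. The medians of all genes on these days were 0.24, -0.11 and -0.16 on Cfa and 0.14, -0.01 and -0.28 on CfaAffx. Inflammatory genes had -0.37, -0.48 and -1.23 on Cfa, below those of all genes on each day. Their CfaAffx medians were 0.12, -0.33 and -0.88, of which the day 4 value was near that of all genes. Proteoglycans and matricellular proteins had 0.79, 0.22 and -0.49 on Cfa and 1.18, 0.90 and -1.64 on CfaAffx, positive on both earlier days and negative at day 14. Collagen enzymes had 0.68, -0.20 and -0.80 on Cfa and 0.80, 0.33 and -2.09 on CfaAffx. Osteoclast genes had 0.24, -0.82 and 0.60 on Cfa and 0.31, -0.69 and -0.43 on CfaAffx, so the types differ in sign at day 14. The difference between days has no test.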

How the data were processed

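Gene expression was measured on 6 Affymetrix canine arrays in 6 groups, 1 array per group, and 2 arrays (day 14) were compared here. The values the authors deposited for day 14 are intensities that were not divided by the array median, and those for days 4 and 7 had been divided by it, with a floor of 0.01 (read from the values). The software and algorithm behind the deposited intensities were not given in the sources used here. Each array was divided by its median over 42860 probe sets, a pseudocount of 1 was added and log2 taken. A table of probe sets and genes named 1 gene for 29254 probe sets, several for 439 and none for 13167, and 27680 matched RefSeq genes (assembly UU_Cfam_GSD_1.0), which served for names alone. Left out were 90 pairs of probe sets whose names differ only in ending with _a_at or _at. Per gene and type, the probe set with the highest mean over both arrays was kept where that mean reached the 40th percentile of all probe sets (0.72 on the log2 scale).

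No test was possible with 1 array per group, so differences and counts at least 2-fold apart are given. The 33 gene lists, the comparison and the rule for names were chosen with earlier results of these data known. The rule takes the 15 highest and 15 lowest on both types by the smaller difference, the 10 highest and 10 lowest on each type, up to 6 members per list and direction at least 2-fold apart, and all osteoblast and osteoclast genes, passing over genes with an identifier only. A further 20 genes outside the rule were named after their values were seen. The scripts were tested on simulated arrays. Analysis used Python 3.11.15, numpy 2.4.6 and pandas 2.3.3, and 9 alternatives were tried.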

Additional observations from a re-analysis of the deposited data

Results flagged for a closer look

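Probe sets with no annotated gene also differed. Of 5546 such Cfa probe sets that reached the minimum level, 382 were at least 2-fold higher in beta-TCP at day 14 and 447 lower, and of 1941 such CfaAffx probe sets 152 were higher and 263 lower. These probe sets entered no other count.

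Some genes taken by the naming rule had a sign at day 4 or day 7 opposite to that at day 14, with a difference of at least 4-fold at day 14 and of at least 1.5 on the log2 scale on the earlier day. With 1 array per group on each day, the difference between days was not tested. On Cfa, the values at day 4 and day 14 were 2.52 and -2.62 for ASPN, 1.65 and -2.85 for COL6A1, 1.65 and -2.28 for RCN1, and 1.50 and -2.18 for SELE. On CfaAffx they were 1.59 and -2.01 for ANGPT2, a vessel growth factor, 1.59 and -3.25 for CALD1, 1.62 and -3.31 for FKBP10, 1.94 and -3.07 for SPARC, and 2.24 and -3.21 for TNN. At day 7, ABCB4 stood at -1.90 against 2.31 at day 14 on Cfa, and ASPN at 2.95 against -2.62. On CfaAffx, the day 7 and day 14 values were 2.54 and -3.20 for GPNMB, a glycoprotein of macrophages and osteoblasts, 2.04 and -3.43 for MX1, 2.43 and -3.87 for OGN, 2.10 and -3.07 for SPARC, and 3.19 and -3.21 for TNN. In each of these genes but ABCB4 the beta-TCP specimen was the higher one on the earlier day.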

How the results depend on the processing

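Leaving out a replicate was not possible, since each group has 1 array. Counts of genes at least 2-fold apart moved by more than 1.5 times with several of the 9 alternatives. The 250 Cfa genes higher became 428 with a pseudocount of 0.25, 74 with a pseudocount of 4, 669 with the arrays scaled to the 90th percentile, 567 with quantile normalization and 132 with each type divided by its own median. The 777 Cfa genes lower became 425 with a pseudocount of 4, 355 with the 90th percentile and 403 with quantile normalization. The 322 CfaAffx genes higher became 680 with a pseudocount of 0.25, 25 with 4, 109 with a filter at the 60th percentile, 709 with the 90th percentile and 765 with each type's own median. The 1740 CfaAffx genes lower became 619 with a pseudocount of 4 and 1029 with the 90th percentile. On both types, the 17 genes higher became 43 (pseudocount 0.25), 3 (pseudocount 4), 9 (60th percentile), 59 (90th percentile) and 36 (quantile), and the 237 lower became 108 (pseudocount 4), 82 (90th percentile) and 90 (quantile). Of 256 gene values at least 2-fold apart, 254 kept their sign under every alternative run and 157 stayed past 2-fold in all. The other 2 turned when all probe sets of a gene were averaged, NCAM1 on Cfa to -0.16 and NDUFS1 on CfaAffx to -0.01. Of 25 list medians at least 0.5 from that of all genes, none changed side, and 10 stayed past 0.5 under every alternative. Apart from these the cause of each shift was not tested. The number of arrays limits the precision of every value.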
